A study of Mus musculus with 12 samples.

Results

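The 10 genes described here encode the machinery that loads peptides onto MHC class II molecules and carries them to the cell surface. They were taken as a named list, were all found among the 35944 genes to which the deposited transcripts could be assigned, and all passed the count filter that 15459 genes passed. In the study, 12 mammary tumours were grown from 4T1, a mouse breast carcinoma line, in female BALB/c mice aged 6 to 8 weeks that had received 100000 cells under the skin of the flank. From 5 days later, each animal was injected beside the tumour with extracellular vesicles (EVs) of the mouse endothelial line MS-1, at 3 µg every 2 days, and tumour RNA was taken on day 21. The EVs had been electroporated with the mimic of 1 miRNA, and each mimic was given to 3 tumours: cel-miR-67, a worm miRNA that serves as the control (ctrl), or 1 of the mouse miRNAs miR-222-3p, miR-183-5p and miR-142-5p. All 4 groups therefore carried the same line and the same vesicles, a group without EVs is not part of these 12 libraries, and each library is poly(A) RNA of a whole tumour in which carcinoma, immune and stromal cells are mixed.

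A class II molecule is a pair of an alpha and a beta chain. The pair is assembled with the invariant chain (Cd74), which fills the peptide groove until proteases of the endosome have cut it down, and the peptide editor H2-DM then exchanges the remaining fragment for a peptide of foreign or self protein. H2-DO, which binds H2-DM and restrains it, is best known from B cells. The coactivator Ciita binds no DNA itself and switches class II genes on through proteins seated on short promoter elements, the X and Y boxes. Dendritic cells, B cells and macrophages carry class II genes. Interferon gamma can induce Cd74, H2-Aa, H2-Ab1 and H2-Eb1 in many other cells, carcinoma cells included. In a bulk tumour, fewer expressing cells and less RNA per cell cannot be told apart.

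The 3 mouse miRNAs are shown first because each miRNA group received the mimic of 1 of them. Capitals mark the seed, bases 2 to 8, and the sequences are mature forms from RefSeq on GRCm38.p6. The mimics that the study lists have the same seeds, and its miR-222-3p mimic lacks the final bases of the form shown. For cel-miR-67 no sequence is shown.
miR-142-5p (mmu-miR-142a-5p): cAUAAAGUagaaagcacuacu
miR-183-5p: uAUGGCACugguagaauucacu
miR-222-3p: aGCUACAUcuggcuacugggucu
The 3 seeds differ from each other. A perfect match to seed bases 2 to 8 was searched in the annotated 3′ UTRs (GENCODE M21) of the protein-coding transcripts of every tested gene, with the letters ACTTTAT for miR-142-5p, GTGCCAT for miR-183-5p and ATGTAGC for miR-222-3p. No match to miR-142-5p or miR-222-3p lay in the 3′ UTRs of the 10 members, while 17.0% and 11.7% of the 14596 genes with a 3′ UTR held one. For miR-183-5p, 11.3% of genes held a match and 2 of the 10 members did, namely the H2-DO chains H2-Oa and H2-Ob. Their 3 sites are shown in their transcripts' sense, with the match in capitals, because they are the only matches of this kind found in a member.
H2-Oa, chr17:34095180-34095202, plus strand: cagctccaGTGCCATccacagct
H2-Ob, chr17:34244766-34244788, plus strand: catacatgGTGCCATctgataca
H2-Ob, chr17:34244785-34244807, plus strand: tacacgtgGTGCCATctgacaca
None of the 3 matches is followed by the A that would make it an 8mer site. A match is a run of letters and not evidence of binding. Matches to fewer seed bases were not searched. The shares of all genes were not matched for 3′ UTR length, which ran from 228 (H2-Oa) to 2676 bases (Ciita) in the members.

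RefSeq promoter windows, which run from 250 bases before to 50 bases after an annotated start, were on hand for 7 of the 10 members (8 windows, since H2-DMa has 2). The stretch from 125 to 30 bases before the start is shown for 6 of them, on the gene's own strand, because Ciita acts through elements of this stretch. Capitals mark, on the strand shown, AACNNATG (8 letters of the X box region), ATTGG (the core of the Y box, an inverted CCAAT) and TGACGTCA (a cyclic AMP response element), and the letters were chosen with the sequences in view.
H2-Aa, chr17:34287853-34287948, minus strand: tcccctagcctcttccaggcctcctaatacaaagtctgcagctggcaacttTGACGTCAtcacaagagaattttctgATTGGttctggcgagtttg
H2-Eb1, chr17:34305742-34305837, plus strand: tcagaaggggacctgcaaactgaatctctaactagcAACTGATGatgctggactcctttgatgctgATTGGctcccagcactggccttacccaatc
H2-DMb1, chr17:34153066-34153161, plus strand: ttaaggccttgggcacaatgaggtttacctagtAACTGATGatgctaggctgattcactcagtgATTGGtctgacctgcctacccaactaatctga
H2-DMb2, chr17:34145124-34145219, plus strand: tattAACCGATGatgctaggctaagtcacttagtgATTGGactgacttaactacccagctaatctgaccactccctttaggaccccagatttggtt
H2-Oa, chr17:34092254-34092349, plus strand: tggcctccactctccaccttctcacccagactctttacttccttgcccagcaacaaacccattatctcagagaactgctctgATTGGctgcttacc
H2-Ob, chr17:34238780-34238875, plus strand: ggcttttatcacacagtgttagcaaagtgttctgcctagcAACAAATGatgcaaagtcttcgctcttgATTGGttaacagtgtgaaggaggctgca
On either strand, AACNNATG was present in 8.86% of all 32851 windows and ATTGG in 37.4%. In the 6 stretches no marked motif overlaps another. In H2-Eb1, H2-DMb1, H2-DMb2 and H2-Ob, ATTGG began 30, 31, 31 and 28 bases after the start of AACNNATG. This order within 24 to 36 bases, a range chosen around those values, was found in 30 of all windows (0.0913%), and H2-Eb2 was among them beside the 4 members. TGACGTCA was in 1.79% of all windows and, of the members with a window, in H2-Aa. The main H2-DMa transcript starts outside both of its windows, and H2-Ab1, Ciita and Cd74 had no entry.

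Libraries held 20285968 to 27021401 estimated reads. Depth did not limit the 8 abundant members, which had at least 943 reads in every library, whereas H2-Oa and H2-Ob had as few as 8. One library stands apart. Tumour 3 of the miR-142-5p group held transcripts of lymph node and B cells: Glycam1, made by the high endothelial venules of lymph nodes, had 2008 reads there and 0 in the other 11 libraries, which allows up to 3 reads in each. The 5 B cell markers, among them Ms4a1, Cd79a and Pax5, summed to 445 TPM in that tumour and to between 1.13 and 2.84 TPM in the others, and all 5 were highest there. Carcinoma identity was present throughout, since Krt8 ranged from 481 to 732 TPM and Epcam from 69.7 to 125 TPM. The fold changes of H2-Oa and H2-Ob against ctrl with miR-142-5p and with miR-183-5p are given with and without this outlying library. Other results include it unless stated.

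Class II genes were among the most abundant messages of these tumours. On GRCm38, 8 of the 10 lie together on chromosome 17 between H2-Oa (from 34092340) and H2-Eb1 (to 34316674). Levels are in TPM, which is scaled by transcript length and so can be compared between genes. Together the 10 members made up between 0.336% (95% Wilson interval 0.334 to 0.338%) and 0.748% (0.745 to 0.752%) of the assigned reads of a library. Cd74 was the highest member in all 12 tumours and ranked between place 12 and place 55 among all genes. H2-Aa, the alpha chain of the I-A molecule, came next in all 12, at a median of 1.46 times its beta chain H2-Ab1. H2-Ab1 and H2-Eb1, the beta chain of the I-E molecule, had no fixed order in TPM. H2-Eb1 was higher in 8 tumours and H2-Ab1 in 4, and their ratio stayed between 0.901 and 1.14. By estimated reads, however, H2-Eb1 lay above H2-Ab1 in all 12. Their TPM also rests on the split among transcripts, since 43.1% to 61.4% of H2-Ab1 TPM belonged to 1 transcript of 889 bases. The H2-DM chains followed, with H2-DMa above both beta genes in all 12 tumours, at 141.8 to 293 TPM. The order of the beta genes depended on the transcripts counted. Over all transcripts H2-DMb1 lay above H2-DMb2 in 12 of 12 tumours (100.6 to 243 and 63.7 to 165 TPM), but 29.6% to 51.1% of the H2-DMb1 TPM belonged to a short transcript with a retained intron. By protein-coding transcripts alone H2-DMb1 was above H2-DMb2 in 0 of 12 tumours, and by estimated reads in 7 of 12. Ciita lay at 8.89 to 34.2 TPM, and the H2-DO chains lay lowest in 11 tumours. H2-DMb1 and H2-DMb2 are near copies of each other and the split of shared reads between them is uncertain. The reads come from BALB/c animals, whose class II genes are of haplotype d, while GRCm38 carries haplotype b of C57BL/6, and how many reads were lost on each polymorphic chain was not tested.

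**Figure D1:**
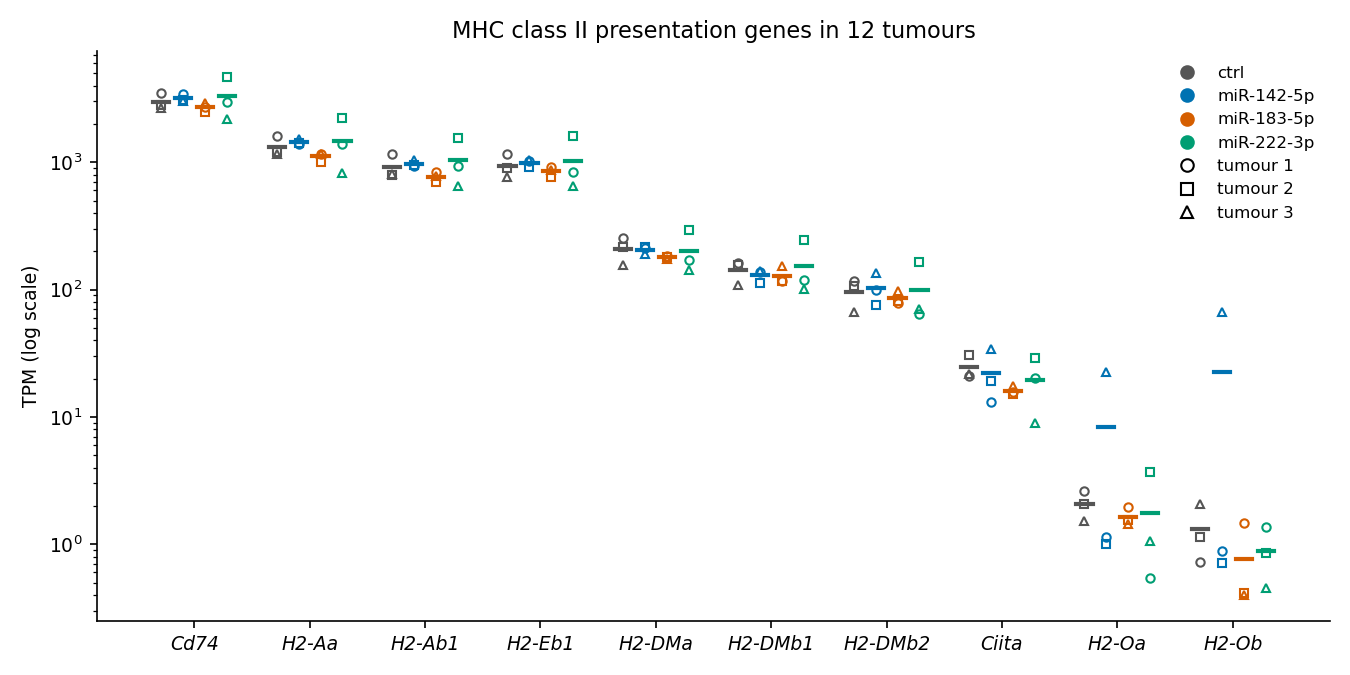
TPM of each gene (log axis) in the 12 tumours, coloured by group, with the tumour number as the symbol and the group mean as a bar. Cd74 lies at 2196 to 4697 TPM, and H2-Oa and H2-Ob lie under 4 TPM apart from miR-142-5p tumour 3, at 22.6 and 66.0 TPM.

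The I-E molecule also needs an alpha chain, and here the annotation matters. C57BL/6 mice carry a deletion that silences this gene, so the GRCm38 annotation lists it as the polymorphic pseudogene H2-Ea-ps, while BALB/c mice have a working copy. It was read at 612 to 2079 TPM (median 1115), 0.948 to 1.31 times the level of H2-Eb1. H2-Ea-ps was not a member. Against ctrl its log2 fold change was 0.07 ± 0.32 (SE) with miR-142-5p, -0.15 ± 0.32 with miR-183-5p and 0.08 ± 0.32 with miR-222-3p, and it was not called in any of these groups (DESeq2).

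The first question was whether any miRNA altered these genes against ctrl EVs. Cd74 was measured at 3514, 2804 and 2664 TPM in the ctrl tumours and at 3463, 3097 and 3034 TPM in the miR-142-5p tumours. In the miR-183-5p tumours it was 2702, 2489 and 2933 TPM, and in the miR-222-3p tumours 2952, 4697 and 2196 TPM. Each miRNA group overlaps ctrl, although the miR-142-5p values all lie above the miR-183-5p values. The highest and the lowest of the 12 values belong to the same group. H2-Ab1 showed the same layout, with 1152, 793 and 813 TPM in ctrl, 930, 946 and 1034 TPM with miR-142-5p, 838, 697 and 775 TPM with miR-183-5p, and 927, 1537 and 645 TPM with miR-222-3p. H2-Aa was 1318 ± 243 TPM (SD, n = 3) in ctrl, 1444 ± 68.5 with miR-142-5p, 1111 ± 88.1 with miR-183-5p and 1473 ± 694 with miR-222-3p. H2-Eb1 was 940 ± 201.4, 994 ± 70.4, 847 ± 76.1 and 1027 ± 507 TPM in the same order.

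Against ctrl, none of the 8 members that received a p-value passed an adjusted p of 0.05 in any group (DESeq2). All genes set the background: 0.00649% were called with miR-142-5p, 0% with miR-183-5p and 0.026% with miR-222-3p. At an unadjusted p under 0.05 the members' count was again 0 of 8 in each, where 3.56%, 3.22% and 2.29% of all genes passed. With edgeR, which gives a p-value to all 10, no member was called either, nor was any other gene (0%). With miR-142-5p, 1 of 10 members (H2-Ob) had an unadjusted p under 0.05 in edgeR, beside 3.35% of all genes, and the members' count was 0 of 10 with miR-183-5p and with miR-222-3p, beside 2.87% and 2.04%. H2-Oa and H2-Ob received no p-value in DESeq2 because 1 library, miR-142-5p tumour 3, dominated their fit.

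The intervals show what these 12 tumours could resolve. For Cd74 the log2 fold change was 0.10 (95% interval -0.37 to 0.57) with miR-142-5p, -0.14 (-0.61 to 0.33) with miR-183-5p and 0.11 (-0.36 to 0.58) with miR-222-3p. For H2-Aa it was 0.13 (-0.40 to 0.65), -0.24 (-0.77 to 0.29) and 0.13 (-0.40 to 0.66). Ciita had the widest interval of the 8, with -0.17 (-0.84 to 0.51), -0.58 (-1.26 to 0.09) and -0.36 (-1.03 to 0.32). A missed threshold does not show that the groups were alike within these intervals. The median log2 fold change of the 8 genes was 0.07, -0.19 and 0.10, beside -0.0050, -0.011 and -0.0078 over all genes tested.

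**Figure D2:**
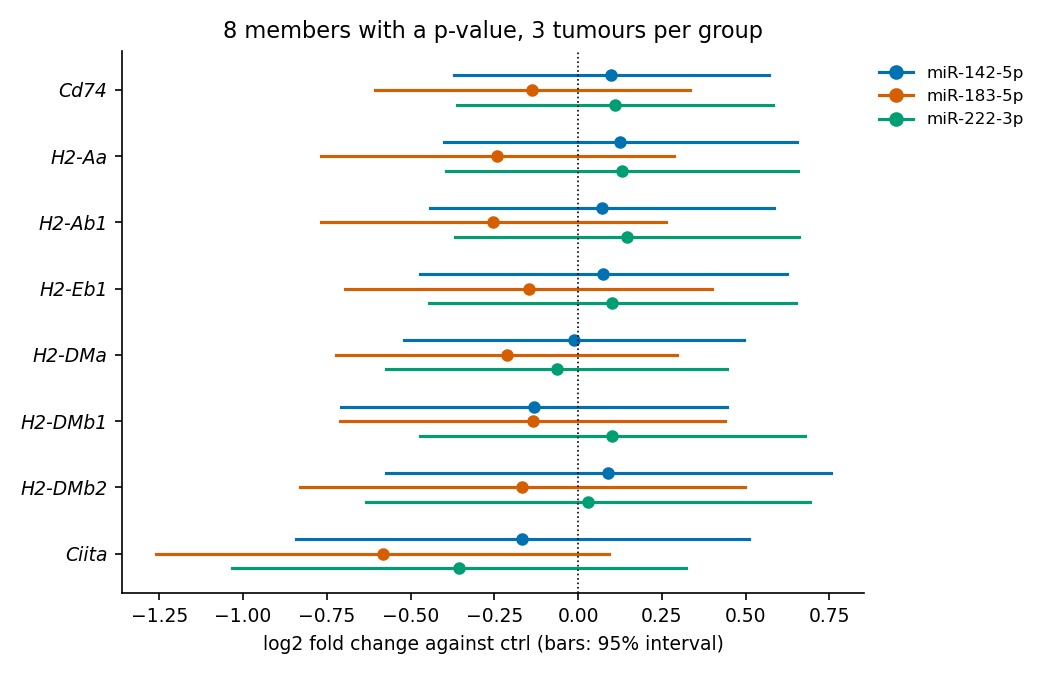
Log2 fold change against ctrl of the 8 members with a p-value, with 95% intervals as bars and 3 tumours per group. Every interval includes 0, and all 8 points of miR-183-5p lie below 0, from -0.14 to -0.58.

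The miR-183-5p tumours had the lowest group mean TPM for all 10 members. These means are not independent, since r between pairs of 7 members (all but H2-Oa, H2-Ob and Ciita) was 0.73 to 0.98. The share of all genes with their lowest mean in this group was not counted. H2-DMa was 183, 179 and 174 TPM in the miR-183-5p tumours, against 252, 215 and 156 TPM in ctrl. Ciita was 15.6, 15.01 and 17.6 TPM, against 21.1, 30.6 and 21.8 TPM in ctrl, so that these 2 groups did not overlap. Genes without overlap were counted on normalised counts, not on TPM. Ciita was the 1 member of 10 without overlap in this contrast, where 9.17% of all genes had none. In the other ctrl contrasts there were 0 of 10, against 6.07% with miR-142-5p and 5.5% with miR-222-3p. Much of this depended on ctrl tumour 1. Without it, the log2 fold changes of Cd74, H2-Ab1, H2-Eb1, H2-DMa, H2-DMb1 and H2-DMb2 in miR-183-5p turned positive, at 0.068, 0.021, 0.11, 0.022, 0.038 and 0.061. Those of H2-Aa, H2-Oa, Ciita and H2-Ob were then -0.0036, -0.052, -0.63 and -0.995. The place of the miR-183-5p tumours below miR-222-3p also depended on miR-222-3p tumour 2. Without that tumour, the log2 fold changes against ctrl were lower with miR-222-3p than with miR-183-5p for every member but H2-Ob. They were -0.25 against -0.14 for Cd74, -0.38 against -0.15 for H2-Eb1, -0.44 against -0.21 for H2-DMa and -0.79 against -0.58 for Ciita. For H2-Ob they were -0.56 against -0.74.

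Marker lists of other cells are set beside these values, for miR-183-5p against ctrl. All 7 macrophage markers were lower with miR-183-5p than in ctrl, with a median log2 fold change of -0.44, and the sum of the list was 938 to 1382 TPM against 1419 to 1759 TPM. The 5 neutrophil markers were all higher, with a median of 0.37, and summed to 1793 to 2909 TPM against 1004 to 1933 TPM. Of the 4 fibroblast markers 1 was lower, with a median of 0.58, and the list summed to 615 to 723 TPM against 267 to 609 TPM. Of the 7 tested markers of conventional dendritic cells, which carry class II molecules, 6 were lower, with a median of -0.29. Other lists had medians of -0.15 for T cells, -0.17 for endothelium, 0.012 for carcinoma epithelium and -0.064 for B cells. None of these markers passed the adjusted threshold. In DESeq2, 2 macrophage, 2 neutrophil, 0 fibroblast and 1 dendritic cell markers had an unadjusted p under 0.05, where 3.22% of all genes did. Their part in the class II values was not tested.

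Between the miRNA groups, the classical chains were lower by normalised counts with miR-183-5p than with miR-142-5p, without overlap. H2-Aa was 1166, 1010 and 1158 TPM with miR-183-5p and 1389, 1422 and 1521 TPM with miR-142-5p. H2-Ab1 and H2-Eb1 were also separated by normalised counts, so that 3 of 10 members did not overlap, beside 12.3% of all genes. In TPM, H2-Eb1 overlapped, at 915 TPM in miR-183-5p tumour 1 and 914 TPM in miR-142-5p tumour 2. Cd74 and H2-DMa, in turn, were separated in TPM but not by normalised counts. The log2 fold changes were -0.37 ± 0.27 (SE) for H2-Aa, -0.32 ± 0.26 for H2-Ab1 and -0.22 ± 0.28 for H2-Eb1, with adjusted p = 0.858, 0.893 and 0.966. Of the 8 members with a p-value in DESeq2, 0 were called, where 0.0519% of all genes were, and 0 had an unadjusted p under 0.05, where 7.95% of all genes did. In edgeR 2 of 10 had one, H2-Oa and H2-Ob, beside 7.3% of all genes, and none was called. When only these 2 groups were fitted, H2-Aa was called with -0.37 ± 0.10 and adjusted p = 0.049, and 0.47% of all genes were called in that fit. The ctrl and miR-222-3p tumours did not enter the estimate of spread in that fit. The median log2 fold change of the marker lists was -0.48 for macrophages, -0.67 for conventional dendritic cells and -1.14 for T cells. It was 0.93 for neutrophils, 0.76 for fibroblasts, -0.31 for endothelium and 0.044 for carcinoma epithelium. Tumour 3 of the miR-142-5p group, with its lymph node transcripts, is 1 of the 3 tumours compared. No marker was called, and the part of these lists was not tested.

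The remaining contrasts gave no call among the members. Between miR-183-5p and miR-222-3p, 0.0324% of all genes were called, 3.24% had an unadjusted p under 0.05 and 9.06% did not overlap, and the members' counts were 0 of 8, 0 of 8 and 0 of 10. Between miR-142-5p and miR-222-3p the shares were 0.0389%, 3.59% and 6.2%, with the same counts of 0. In edgeR the unadjusted threshold was passed by 0 of 10 members and 2.88% of all genes in the former contrast, and by 2 of 10 (H2-Oa and H2-Ob) and 3.38% in the latter. A test of any difference among the 4 groups (DESeq2 likelihood ratio) called no member either, where 0.0584% of all genes passed the adjusted and 4.73% the unadjusted threshold. The lowest unadjusted p of a member in that test was 0.371, for Ciita, with an adjusted p of 0.9999.

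What did vary was the individual tumour. Measured on log2(normalised count + 1), the SD over the 12 tumours was 0.30 for Cd74, 0.36 for H2-Aa, 0.34 for H2-Ab1 and 0.35 for H2-Eb1, beside a median of 0.19 over the 11542 genes with a mean normalised count of at least 100. Groups accounted for 9.28%, 15.5%, 15.8% and 5.64% of that variance, where the median of those genes was 19.96%. Such a share is above 0 even where groups do not differ. In miR-222-3p tumour 2, all 8 abundant members lay above their own mean, by 0.58 to 0.85. In ctrl tumour 1 all 8 lay above as well, by 0.25 to 0.48. In miR-222-3p tumour 3 all 8 lay below, from -0.34 for H2-DMb2 to -1.05 for Ciita, and all 8 lay below too in miR-222-3p tumour 1 and in miR-183-5p tumours 1 and 2. The widest range of class II levels was thus found within the miR-222-3p group.

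**Figure D3:**
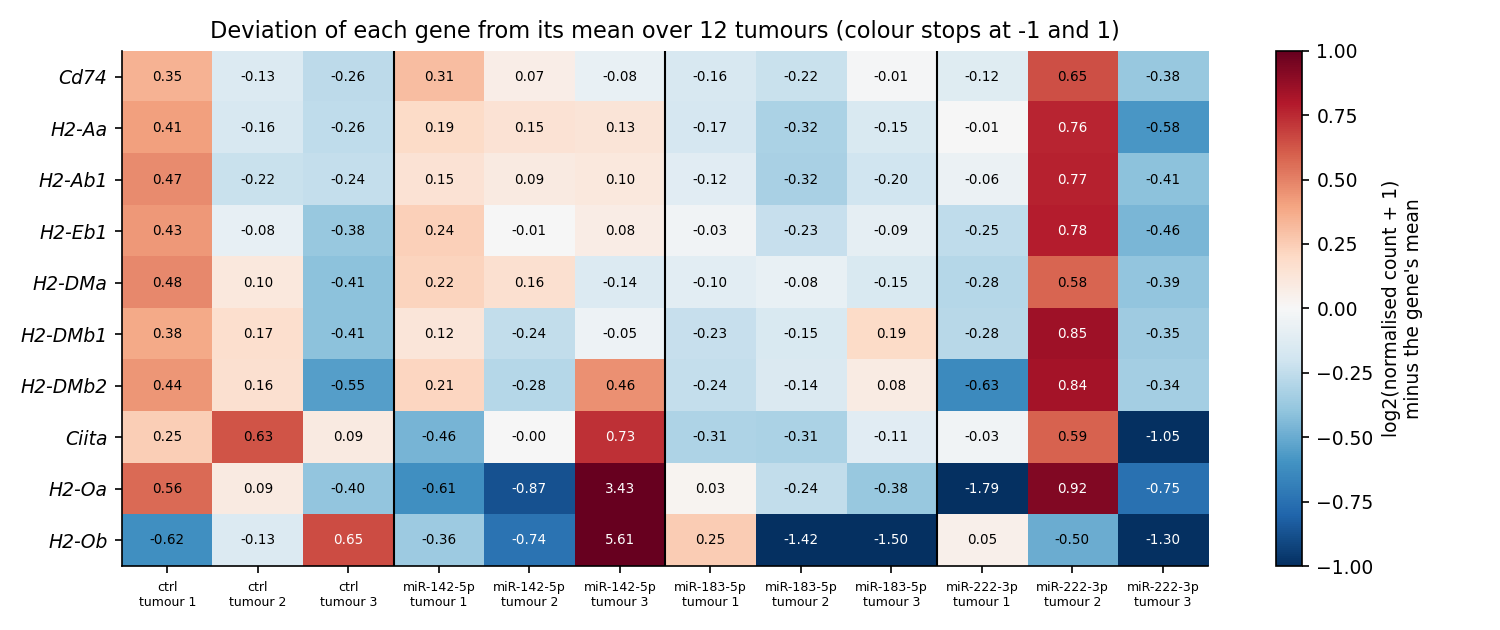
Deviation of each gene (rows) from its own mean over the 12 tumours (columns), in log2(normalised count + 1), with the value printed in each cell and the colour saturated beyond 1 and -1. The first 8 rows are all positive in ctrl tumour 1 and miR-222-3p tumour 2 and all negative in miR-222-3p tumour 3, while H2-Oa and H2-Ob reach 3.43 and 5.61 in miR-142-5p tumour 3.

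The classical genes moved together closely. H2-Ab1 was set against 9 other genes of the pathway, a family chosen after the values were seen, with a permutation test of 100000 resamples. With its partner H2-Aa, r was 0.98 and rho 0.97 (n = 12, permutation p = 1e-05 for each, the smallest these resamples can give, adjusted p = 4.5e-05 and 9e-05). With Cd74, r was 0.94 and rho 0.92 (permutation p = 1e-05 and 0.0001, adjusted p = 4.5e-05 and 0.000225). With H2-Eb1, r was 0.95 and rho 0.91 (permutation p = 2e-05 and 7e-05, adjusted p = 6e-05 and 0.00021), and with H2-Ea-ps, r was 0.92 and rho 0.92 (permutation p = 3e-05 and 7e-05, adjusted p = 6.75e-05 and 0.00021). Without the 2 tumours farthest from the median of H2-Ab1, which were miR-222-3p tumour 2 and ctrl tumour 1, these 4 values of r were 0.97, 0.82, 0.83 and 0.80, and centred on the group means they were 0.98, 0.94, 0.97 and 0.96.

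The relations with the peptide editor were lower in r. For H2-Ab1 with H2-DMa, r was 0.86 and rho 0.72 (permutation p = 0.00041 and 0.0108, adjusted p = 0.000738 and 0.0194). With H2-DMb1, r was 0.79 and rho 0.61 (permutation p = 0.00338 and 0.0409, adjusted p = 0.00507 and 0.0526), and with H2-DMb2, r was 0.74 and rho 0.65 (permutation p = 0.00526 and 0.0267, adjusted p = 0.00676 and 0.0401). Without the same 2 tumours r was 0.59, 0.26 and 0.38, with permutation p = 0.0776, 0.45 and 0.276. Over those 10 tumours, with a narrower range of H2-Ab1, none of the 3 passed the threshold. The H2-DO chains showed no relation past the threshold, with r = 0.37 and rho = 0.36 for H2-Oa (permutation p = 0.223 and 0.246, adjusted p = 0.251 and 0.277) and r = 0.13 and rho = 0.21 for H2-Ob (permutation p = 0.661 and 0.515, adjusted p = 0.661 and 0.515). Centred on the group means, the 5 values were 0.88, 0.84, 0.76, 0.39 and 0.0042.

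Ratios between chains held steadier than the chains themselves. H2-Aa ranged 2.67-fold over the tumours and H2-Ab1 2.38-fold, yet H2-Aa to H2-Ab1 stayed between 1.28 and 1.51. Cd74 to the sum of the 3 classical chains stayed between 0.843 and 1.05, and H2-DMa to the sum of the H2-DMb genes between 0.690 and 1.15. H2-DMa was between 0.183 and 0.272 of H2-Ab1. Ciita to H2-Ab1 was the loosest, from 0.0138 to 0.0386, a 2.81-fold range. None of the 6 log2 ratios differed among the groups in an exact permutation test over all divisions of the 12 tumours into 4 groups of 3, whose smallest possible p is 6.49e-05. The exact p ran from 0.314 (H2-Eb1 to H2-Ab1) to 0.945 (H2-DMa to the H2-DMb genes), and adjusted over the 6 ratios from 0.867 to 0.945.

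Ciita RNA showed no relation to its targets that passed the threshold. Ciita was 13.0, 19.001 and 34.2 TPM in the miR-142-5p tumours and 20.2, 29.0 and 8.89 TPM in the miR-222-3p tumours. Its second highest value, 30.6 TPM, was in ctrl tumour 2, where the classical chains lay below their means and the H2-DM chains above. In miR-142-5p tumour 1 Ciita lay below its mean and the classical chains above. Both lay above in miR-222-3p tumour 2 and below in miR-222-3p tumour 3. In a family of 18 relations, 9 of them between Ciita and the other members, no r or rho passed after adjustment. Those 9 values of r were all positive, from 0.41 to 0.61. For Ciita and H2-Ab1, r was 0.53 and rho 0.43 (n = 12, permutation p = 0.0799 and 0.16, adjusted p = 0.225 and 0.36). The highest was H2-Oa, with r = 0.61 and rho = 0.63 (permutation p = 0.0357 and 0.0315, adjusted p = 0.225 and 0.284), followed by H2-Aa with r = 0.60 and rho = 0.45 (permutation p = 0.0363 and 0.14, adjusted p = 0.225 and 0.36). Without miR-222-3p tumour 3 and miR-142-5p tumour 3, the lowest and the highest in Ciita, these 3 values of r were 0.42, 0.49 and 0.44, and centred on the group means they were 0.55, 0.63 and 0.63.

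The other 9 relations set H2-Ab1 against genes that stand for cell types and for interferon signalling, and none passed after adjustment. With Csf1r, the receptor that macrophages depend on, r was 0.39 and rho 0.46 (permutation p = 0.206 and 0.134, adjusted p = 0.309 and 0.36). With Adgre1, which encodes the macrophage protein F4/80, r was 0.22 and rho 0.31 (permutation p = 0.478 and 0.332, adjusted p = 0.574 and 0.498). The highest rho was that of Cd3e, a T cell receptor subunit, at 0.73 with r = 0.44 (permutation p = 0.00869 and 0.16, adjusted p = 0.156 and 0.303). With Ifng itself, which was low at 1.82 to 6.20 TPM, r was 0.42 and rho 0.22 (permutation p = 0.172 and 0.497, adjusted p = 0.303 and 0.639). Its r was -0.25 without the 2 farthest tumours, of which miR-222-3p tumour 2 had the highest Ifng as well as the highest class II level. Without those 2 tumours r was 0.61 for Csf1r, 0.39 for Adgre1 and 0.57 for Cd3e, and centred on the group means the 4 values were 0.18, 0.0014, 0.33 and 0.54 in the order Csf1r, Adgre1, Cd3e and Ifng.

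**Figure D4:**
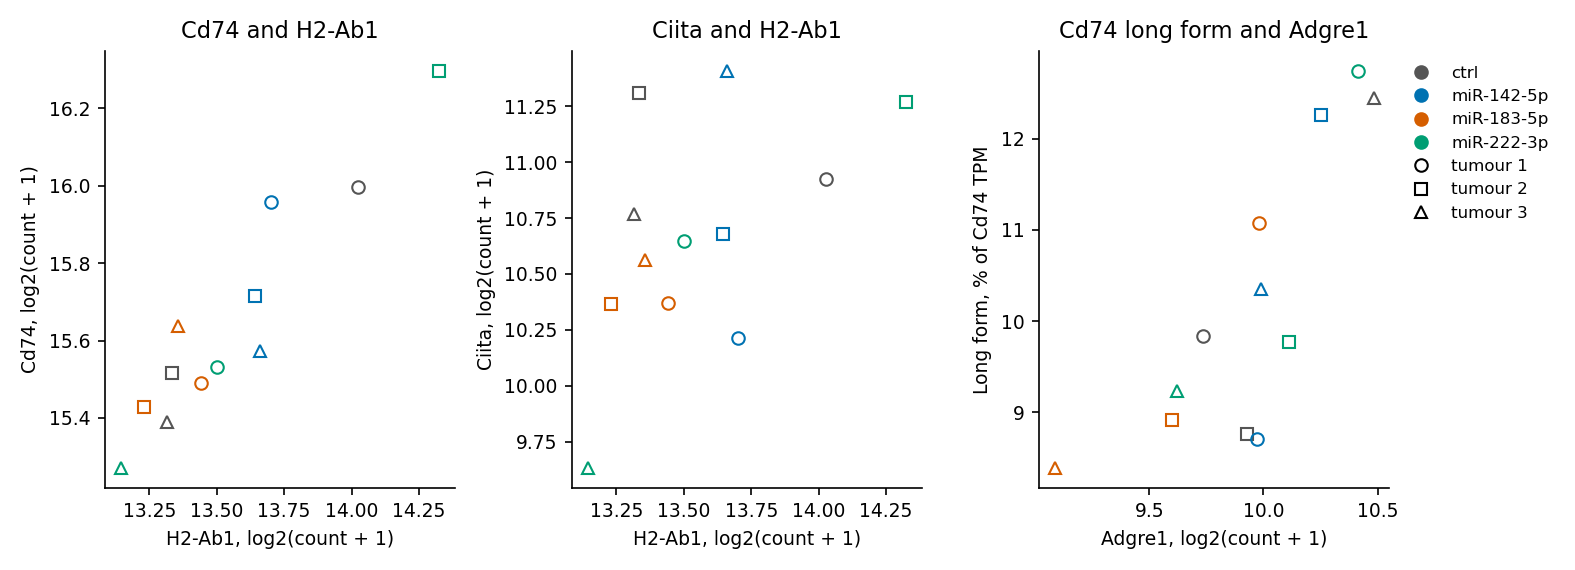
Left and centre, Cd74 and Ciita against H2-Ab1, in log2(normalised count + 1), 1 symbol per tumour with the group as colour, and right, the share of Cd74 TPM in its long form (%) against Adgre1 in log2(normalised count + 1). Over the 12 tumours r was 0.94, 0.53 and 0.81.

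The genes most like the class II pattern were found by their Pearson r, over the 12 tumours, with the mean deviation of Cd74, H2-Aa, H2-Ab1 and H2-Eb1, among genes with a mean normalised count of at least 100. Beyond the members, the first was H2-Ea-ps (r = 0.95) and the second Klrb1b (r = 0.88), an inhibitory receptor of the natural killer gene complex that was low at 2.53 to 13.7 TPM. Fgfbp1, Sectm1a, Zfp61, Ctsc, P2ry14, Sirpb1c, Fcgr4 and Borcs7 followed, with r from 0.77 to 0.74. Ctsc encodes cathepsin C, a lysosomal protease, and Fcgr4 an activating receptor for IgG. Among all 11542 genes, H2-DMa, H2-DMb1 and H2-DMb2 took places 6, 8 and 9, Ciita place 338 and Csf1r place 1647. The list beyond the first 2 genes depended on single tumours: 4 of the 10 were still among the first 10 without miR-222-3p tumour 2, 2 of 10 without miR-222-3p tumour 3 and 6 of 10 without miR-142-5p tumour 3, and H2-Ea-ps was first in all 3 cases.

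H2-DO was set apart by 1 library. H2-Ob, the beta chain, was 0.725, 1.14 and 2.09 TPM in ctrl and 0.882, 0.711 and 66.0 TPM with miR-142-5p. It was 1.48, 0.418 and 0.401 TPM with miR-183-5p, and 1.36, 0.857 and 0.452 TPM with miR-222-3p. H2-Oa, the alpha chain, was 1.14, 0.999 and 22.6 TPM with miR-142-5p and between 0.540 and 3.67 TPM in the other groups. In miR-142-5p tumour 3 the H2-Ob level was 31.7 times, and that of H2-Oa 6.17 times, the highest of the other 11 tumours, whereas Cd74 was there at 0.646 times the highest. It held 1695 reads of H2-Ob, against at most 40 elsewhere, and is the tumour with the lymph node and B cell transcripts, whose part in these values was not tested.

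H2-Ob had a log2 fold change of 4.04 ± 1.34 (SE) with miR-142-5p against ctrl, and H2-Oa of 1.90 ± 0.90. Without tumour 3 they were -0.65 and -0.91, with adjusted p = 0.9999 each (DESeq2). With edgeR on all 12 libraries neither was called against ctrl, and between miR-183-5p and miR-142-5p the adjusted p was 0.548 for H2-Ob and 0.671 for H2-Oa. H2-Ob was called when miR-142-5p tumour 1 or tumour 2 was left out, with adjusted p = 0.00468 and 0.017 (DESeq2) between miR-183-5p and miR-142-5p and 0.0226 and 0.0304 between miR-142-5p and miR-222-3p. In those fits the group held tumour 3 and 1 other tumour, and 2.69% and 0.363% of all genes were called in the former contrast and 0.467% and 0.143% in the latter. H2-Eb2, a further class II beta gene that was no member and did not pass the filter, had 260 reads in tumour 3 and at most 31 elsewhere, and is named after its values were seen. The 3 seed matches of miR-183-5p shown above lie in these 2 genes. Against ctrl their log2 fold changes with miR-183-5p were -0.33 ± 0.91 for H2-Oa and -0.74 ± 1.35 for H2-Ob. When miR-142-5p tumour 3 did not enter the shared estimate of spread they were -0.33 and -0.73, with adjusted p = 0.9998 for both (DESeq2).

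**Figure D5:**
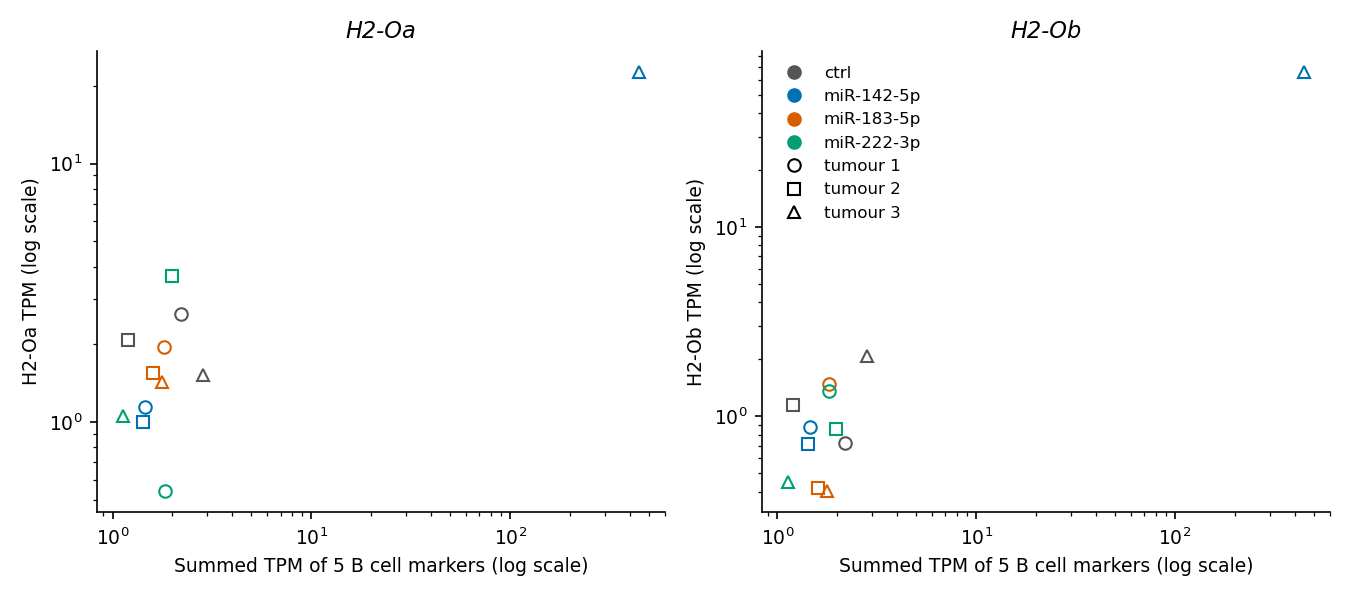
H2-Oa and H2-Ob TPM against the summed TPM of 5 B cell markers, both on log axes, 1 symbol per tumour. Tumour 3 of the miR-142-5p group stands alone at 445 TPM of B cell markers, and the other 11 tumours lie at 1.13 to 2.84 TPM.

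Transcript estimates divide each gene further, within what short reads can resolve. Cd74 (GRCm38 chromosome 18, 60803848 to 60812652, plus strand) is made in a short form and a long form, which has 1 more exon and is known to add a domain that inhibits cathepsins. The long form held 8.39% to 12.7% of Cd74 TPM, with 9.84%, 8.76% and 12.4% in ctrl, 8.71%, 12.3% and 10.3% with miR-142-5p, 11.1%, 8.92% and 8.39% with miR-183-5p and 12.7%, 9.77% and 9.24% with miR-222-3p. Groups overlap in every pair, and the exact permutation p of a difference among them was 0.840. The share was then set against 6 genes, a choice made after its values were seen. The share correlated with genes of macrophages, with r = 0.81 and rho = 0.82 for Adgre1 (n = 12, permutation p = 0.00088 and 0.00183, adjusted p = 0.00528 and 0.011) and r = 0.77 and rho = 0.73 for Csf1r (permutation p = 0.00255 and 0.00855, adjusted p = 0.00765 and 0.0212). Without the 2 tumours farthest from its median r was 0.67 and 0.72, and centred on the group means 0.83 and 0.88. For Ptprc, the leukocyte antigen CD45, r was 0.54 and rho 0.72 (permutation p = 0.0595 and 0.0106, adjusted p = 0.0892 and 0.0212). For the carcinoma marker Epcam r was -0.62 and rho -0.64 (permutation p = 0.0358 and 0.0301, adjusted p = 0.0716 and 0.0452), so that both passed by rho alone. Without the 2 farthest tumours r was 0.40 and -0.38, and centred on the group means 0.54 and -0.60. With Cd74 itself r was -0.18 and rho -0.15 (permutation p = 0.586 and 0.636, adjusted p = 0.703 and 0.751). With H2-Ab1, r was 0.031 and rho 0.10 (permutation p = 0.924 and 0.751, adjusted p = 0.924 and 0.751).

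Ciita (chromosome 16, 10480059 to 10528418, plus strand) has 3 clusters of annotated first exons, which are known to be used by different cells. Transcripts that start at the upstream exon (10480059 to 10480426) held 1.91% to 12.1% of its TPM, those of the middle exon (10488178 to 10488424) 70.0% to 88.0%, and those of the downstream exon (10489746 to 10489864) 5.01% to 18.8%. The middle cluster holds the transcript with the longest 3′ end, so its share also collects reads from the tail of any Ciita message and use of the first exons cannot be read from these values. Of the H2-Eb1 TPM, 67.6% to 80.3% were assigned to 1 transcript that is annotated as subject to nonsense-mediated decay, and which of its relatives those reads came from was not tested. Gene levels do not depend on these divisions except through length.

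Of the proteins that switch class II genes on or feed them, none was called in any of the 6 contrasts. The transcription list held 17 genes, among them the X box factors Rfx5, Rfxap and Rfxank, the Y box subunits Nfya, Nfyb and Nfyc, and Irf1 of the interferon response, and all passed the count filter, with a p-value for 16. The median log2 fold change against ctrl was 0.031 with miR-142-5p, -0.037 with miR-183-5p and -0.024 with miR-222-3p. The lowest unadjusted p for any difference among the groups belonged to Irf8, a factor of macrophages, dendritic cells and B cells (0.0612, adjusted p = 0.9999, DESeq2). Irf8 was 66.8, 84.3 and 65.3 TPM in ctrl, 60.7, 68.4 and 98.6 TPM with miR-142-5p, 55.8, 57.9 and 57.2 TPM with miR-183-5p, and 62.4, 70.9 and 54.9 TPM with miR-222-3p. The miR-183-5p values lay below all ctrl values, and the highest value was in miR-142-5p tumour 3. Between miR-183-5p and ctrl, 9.17% of all genes had no overlap by normalised counts.

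The list of antigen processing and chain turnover had 11 genes, of which 10 were matched and tested, such as the invariant chain proteases Ctss, Ctsl and Lgmn and the ubiquitin ligases March1 and March8. The median log2 fold change was 0.10, -0.11 and -0.025 in the same order, and no gene was called. The lowest unadjusted p among the groups was that of Cd83 (0.0319, adjusted p = 0.936, DESeq2), which protects class II molecules from ubiquitination by March1. Cd83 was 11.2, 6.92 and 15.5 TPM in ctrl, 8.99, 19.2 and 54.1 TPM with miR-142-5p, 9.16, 6.26 and 2.64 TPM with miR-183-5p, and 21.1, 8.29 and 4.40 TPM with miR-222-3p, so that its highest value was again in miR-142-5p tumour 3.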

How the data were processed

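Strand-specific poly(A) libraries of 12 tumours, 3 per group, were analysed, and groups were taken from the sample labels. The authors quantified reads with Salmon on GRCm38 transcripts, and the deposited tables give per transcript an estimated count (expected count, not whole), its TPM and an effective length. The study's methods and the table names give different Ensembl releases, so the annotation here (GENCODE M21) may differ from theirs. Of 118783 transcripts 116710 matched it by identifier, and 0.633% to 0.671% of the reads were not used. Counts and TPM were summed per gene, and counts were rounded. A gene was tested where 3 or more libraries held 10 or more of its reads, with DESeq2 1.42.0 (R 4.3.3, 12 libraries in 1 fit, length offset, Benjamini-Hochberg over all genes, threshold 0.05). DESeq2 gives no p-value to a gene that 1 library dominates (Cook's distance). The alternatives were edgeR 4.0.16, TMM factors, other filters, no length offset, 2 groups at a time, a replicate block and each tumour left out. Ratios and correlations used Python 3.11.15 with scipy 1.17.1, the latter on log2(normalised count + 1). Scripts were tested on simulated data.

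The members, the further lists and the motifs were chosen with earlier results of these data known. The p-values of DESeq2 and edgeR were therefore adjusted over all genes tested and not over a list alone. Those of the ratios and correlations were adjusted only within the 6 ratios and within the families of 18, 9 and 6 correlations. Named genes were the members, the genes of each further list that were called or otherwise the one with the lowest p among the groups, the genes of the correlation family, and the 10 genes most like the classical chains. One relation of the family is not reported here. Krt8, Epcam and Glycam1 were named from the marker lists after their values were seen. Wilson intervals of read shares and the limits set by a count of 0 cover counting error only, since reads are not independent molecules, whereas the intervals of fold changes come from the DESeq2 SE over tumours. No source says whether the 3 tumours of a group came from separate batches, and p-values measure the spread between these tumours. No pair of libraries within a group was a copy of the other.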

Additional observations from a re-analysis of the deposited data

How the results depend on the processing

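Over all settings tried, no member was called against ctrl in any group or in the test among the 4 groups. The number of members called between miR-183-5p and miR-142-5p was 0, was 1 with only these 2 groups fitted (H2-Aa), and ranged from 0 to 1 when 1 tumour was left out. Between miR-142-5p and miR-222-3p it also ranged from 0 to 1 (H2-Ob in both). No source says whether the replicate numbers pair the tumours. Between groups, the residual correlation of same-numbered tumours averaged -0.068 (range -0.58 to 0.36). That of tumours with other numbers averaged 0.033 (-0.42 to 0.61). Such averages cannot exclude a batch shared by single tumours. With the replicate block 0 members were called in each contrast. Under the replicate block the log2 fold change of H2-DMa with miR-142-5p was 0.0062 (otherwise -0.012) and that of H2-DMb2 with miR-222-3p was -0.012 (otherwise 0.030), and without the length offset that of H2-DMb1 with miR-222-3p was -0.026.

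Leaving out 1 tumour at a time turned the sign of several log2 fold changes against ctrl, none of them called. With miR-142-5p the ranges were -0.017 to 0.31 for Cd74, -0.051 to 0.35 for H2-Ab1, -0.092 to 0.33 for H2-Eb1, -0.21 to 0.22 for H2-DMa, -0.32 to 0.043 for H2-DMb1, -0.14 to 0.32 for H2-DMb2, -0.91 to 2.42 for H2-Oa, -0.65 to 4.61 for H2-Ob and -0.55 to 0.071 for Ciita. With miR-183-5p they were -0.25 to 0.068 for Cd74, -0.37 to 0.021 for H2-Ab1, -0.31 to 0.11 for H2-Eb1, -0.41 to 0.022 for H2-DMa, -0.33 to 0.038 for H2-DMb1 and -0.40 to 0.061 for H2-DMb2. With miR-222-3p they were -0.25 to 0.31 for Cd74, -0.30 to 0.40 for H2-Aa, -0.27 to 0.42 for H2-Ab1, -0.38 to 0.36 for H2-Eb1, -0.44 to 0.17 for H2-DMa, -0.40 to 0.31 for H2-DMb1, -0.55 to 0.29 for H2-DMb2 and -1.37 to 0.18 for H2-Oa. All positive values of miR-183-5p came from leaving out ctrl tumour 1. The exact p of the 6 ratios and of the Cd74 long form stayed above 0.05 under every setting run.

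Some correlations with H2-Ab1 turned sign. Without the 2 farthest tumours, and, chosen after seeing the data, without miR-222-3p tumour 2 alone, r was 0.39 and 0.085 for Flt3, -0.25 and -0.21 for Ifng, and -0.17 and -0.16 for Epcam. H2-Oa and H2-Ob had 8 to 56 and 8 to 40 reads outside miR-142-5p tumour 3, which limits their fold changes.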
